A study of Saccharomyces cerevisiae with 4 samples.

Results

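At 130 array probes of the budding yeast genome, Nup170p gave a high ChIP signal and its paralog Nup157p did not. The probes were chosen by values measured in the wild-type libraries. A selected probe had a log2 ratio, taken as ChIP signal over that of whole cell extract (WCE), of 0.4 or more (1.32-fold) in both hybridisations of Nup170 in wild type, and of 0 or less in both hybridisations of Nup157 in wild type. Each hybridisation was centred on the median of its nuclear probes, and probes within 5 kb of the first or last probe of a chromosome were left out. Of 41041 probes that could be chosen, 1572 (3.83%) were high with Nup170, and 130 of these (8.27%, or 0.317% of all) were also at or below 0 with Nup157. They lay on all 16 chromosomes and were annotated to 115 genes.

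ChIP-chip was done on 4 libraries, 1 in each group, with no replicate culture and no untagged strain analysed here. The strain of the first group was NUP170-9xMYC::hphR sir4∆::natR, that of the second NUP170-9xMYC::hphR yku70∆::natR, that of the third NUP170-9xMYC::hphR, called wild type, and that of the fourth NUP157-9xMYC::hphR, also called wild type. Per the labels, all 4 were MATa with his3∆1, leu2∆0, ura3∆0 and lys2∆0, grew in YPD at 30 °C, and had chromatin sheared to about 400 bp before anti-Myc ChIP. Each file holds 2 hybridisations, which the labels do not call separate cultures, so they are repeat measurements of 1 library. There is therefore no test and no p-value here, and precision is limited by the small number of arrays. Pairs of values below are log2 ratios of hybridisations 1 and 2.

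Nup170p and Nup157p arose by gene duplication and both build the inner ring of the nuclear pore complex, and pore proteins are known to contact both silent chromatin and active genes. Nup170p in particular is known in yeast for a role in the silencing and tethering of subtelomeric genes. Sir4p is a structural protein of silent chromatin at telomeres and at the silent mating loci HML and HMR. Yku70p is a subunit of the Ku complex, which binds DNA ends and helps to hold telomeres at the nuclear envelope.

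The WCE channel holds genomic DNA and did not match every label. LYS2, whose deletion the labels give for all 4 strains, exceeded blank spots in 32 of 32 readings in each of the Nup170 libraries and in 0 of 32 in the Nup157 library. MET17, which the labels do not name, was above blank in 0 of 6 readings in each Nup170 library and in 6 of 6 with Nup157. SIR4 itself was above blank in 30 of 30 readings of the library labelled sir4∆, with a median log2 WCE level of -0.54, against -0.08, 0.0015 and -0.05 in the yku70∆-labelled, Nup170 wild-type and Nup157 libraries. YKU70 was above blank in 14 of 14 readings of the library labelled yku70∆. Both deletion libraries are therefore named by their labels only, and a value in them cannot be ascribed to the missing protein. The Nup157 strain differed from the Nup170 strains in more than the tagged gene, so protein and strain cannot be told apart in the choice of these probes. Its WCE level at HMRA1, given below, was also lower, so its mating type is named by its label only.

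The probes are described first by how far they stand out. Nup170 values at the 130 probes had a median of 0.57 in wild type (range 0.42 to 1.3), and Nup157 values a median of -0.37 (range -1.85 to -0.02), both fixed by the choice. Ratios scattered more with Nup157: the lower-side SD of all probes in each hybridisation was 0.30 and 0.22 with Nup170 in wild type, against 0.59 and 0.56 with Nup157. Of all 41041 probes, 14612 (35.6%) were at or below 0 in both Nup157 hybridisations. The probes just inside the Nup170 threshold were annotated to PDH1, FAS1, RPA190, RPC17 and OCA4, with the lower Nup170 hybridisation between 0.40 and 0.405, and those just outside to NVJ2, THI21, IML1, RPL31B and RTN1, between 0.395 and 0.399. At the Nup157 threshold, PDR5, RPL35A, NUP170, RPS22B and DNF1 lay just inside and MIC26, BUB1, FRK1, YMR013W-A and SER3 just outside. Membership near either line therefore rests on differences far smaller than those between hybridisations. It also rests on the processing: with an intensity trend removed 105 probes were chosen, of which 40 were among the 130, and with normexp background correction 460, of which 77 were.

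In the 2 Nup170 libraries that the choice did not use, most of these probes stayed above 0 and a minority reached the wild-type threshold. The median was 0.35 in the sir4∆-labelled library (0.32 and 0.42 in its hybridisations, range -0.08 to 1.88) and 0.39 in the yku70∆-labelled library (0.42 and 0.37, range -0.35 to 0.85), where 1 probe, inside PUF2, was marked for exclusion. Both hybridisations were above 0 at 120 of 130 probes (92.3%) in the sir4∆-labelled library, against 33.2% of all probes, and at 116 of 129 (89.9%) in the yku70∆-labelled library, against 34.2% of all probes. A value of 0.4 or more in both hybridisations was found at 36 of 130 (27.7%) in the sir4∆-labelled library and at 40 of 129 (31.0%) in the yku70∆-labelled library, where all probes gave 2.90% and 3.55%. The other 1442 probes high with Nup170 lay higher in these libraries too, with medians of 0.54 and 0.64 and 59.8% and 73.5% at 0.4 or more. In wild type, too, the selected probes lay lower, with a median of 0.57 against 0.74.

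**Figure D1:**
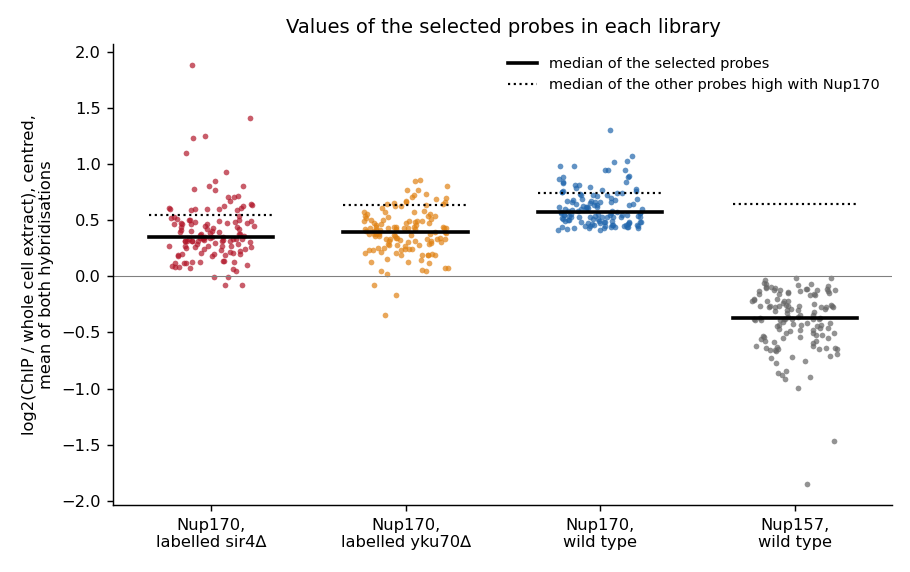
Log2 ratio of ChIP over WCE of the 130 selected probes (129 in the yku70∆-labelled library), 1 point per probe as the mean of both hybridisations, in each of the 4 libraries; solid lines are medians of these probes and dotted lines medians of the other 1442 probes high with Nup170. The medians of 0.35 and 0.39 in the libraries labelled sir4∆ and yku70∆ lie below the 0.57 of Nup170 in wild type and above the -0.37 of Nup157; the last 2 columns were used to choose the probes.

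The selected probes were also set against the authors' own marks. In their deposited marks of bound regions, 55 of the 130 probes (42.3%) were in a region bound in the sir4∆-labelled library, against 4.58% of all probes. In the yku70∆-labelled library this was 68 of 129 (52.7%), against 5.11%. In wild type it was 79 of 130 (60.8%) for Nup170 and 0 for Nup157, against 5.15% and 5.16% of all probes, which the choice favours. No label or file header says how these marks were made.

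Set against Nup170 in wild type, 115 of 130 probes were lower in the sir4∆-labelled library and 124 of 129 in the yku70∆-labelled library, with median differences of -0.22 and -0.19. Among all probes 20827 of 41037 and 20269 of 41037 were lower than wild type in these libraries. Among the other probes high with Nup170 these counts were 1305 of 1439 and 1176 of 1440. Because the probes were taken for being high in that wild-type library, lower values elsewhere are what the choice favours, and nothing is read from them. Both hybridisations lay below both of wild type at 73 probes (56.2%) in the sir4∆-labelled library, where all probes gave 17.4%, and at 71 (55%) in the yku70∆-labelled library, where all probes gave 15.6%. Both lay above wild type at 4 probes (3.08%, all probes 16.9%) and at 2 (1.55%, all probes 16.8%). The other probes high with Nup170 had median differences of -0.22 and -0.12, and they were chosen on the same wild-type values.

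Between the deletion-labelled libraries, which took no part in the choice, the size and sign of the median difference depended on hybridisation and processing. The sir4∆-labelled minus yku70∆-labelled difference had a median of -0.03, with 76 probes below 0 and 53 above, and the 4 pairings of hybridisations gave medians from -0.10 to 0.03, on both sides of 0. With normexp background correction it was -0.20. Other probes high with Nup170 had a median difference of -0.11 and all probes -0.01. Across the 129 probes, which share arrays and are in part neighbours, Pearson's r between the libraries was 0.33 and Spearman's rho 0.49. The probes at 0.4 or more in both libraries numbered 22, which was 62.9% of the 35 probes so high in the sir4∆-labelled library with a value in both and 55% of the 40 in the yku70∆-labelled library. For the other probes high with Nup170 these shares were 91.6% and 74.6%, and for all probes 75.5% and 61.9%.

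These 22 probes, high with Nup170 in all 3 of its libraries, lay at 20 genes. They included both probes at LIN1, both downstream of HMRA1, and 1 each at STM1, CAF40, PDR5, GAS1, PSE1, TFA2, SHU2, MNL2, BST1 and YRA1. Ribosomal protein genes gave the other 8: RPL7A, RPL11B, RPL31A, RPL40B, RPL43B, RPS7A, RPS22B and RPS25B. At 76 of 129 probes neither library reached the threshold. The same was so at 309 of 1438 other probes high with Nup170 and at 39289 of 41034 among all probes.

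Nup170 signal around the selected probes declined with distance. Neighbouring probes 1 to 299 bp away (139, leaving out other selected probes) had medians of 0.22 and 0.28 in the sir4∆- and yku70∆-labelled libraries, 0.36 with Nup170 in wild type and 0.0042 with Nup157. At 300 to 599 bp they were 0.15, 0.19, 0.28 and 0.13, the highest Nup157 median at any distance. At 600 to 999 bp they were 0.09, 0.13, 0.16 and 0.01, and at 2000 to 3000 bp 0.02, 0.02, 0.02 and -0.00093. The low Nup157 value, which the choice fixes at the selected probe, was not shared by the median of its nearest neighbours. A probe that was high with Nup170 but was not selected lay within 1000 bp of 77 of the 130 probes (59.2%), and a probe high with both proteins within 1000 bp of 47 (36.2%). For the other probes high with Nup170 these shares were 68.6% and 51.3%. Of those other probes 54.6% were themselves high with both proteins, so a contrast in the last share is favoured by the choice. The same shares over all probes were not computed. Selected probes themselves were scattered: 100 stood alone, 13 pairs lay within 1000 bp of each other, and 1 run held 4.

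**Figure D2:**
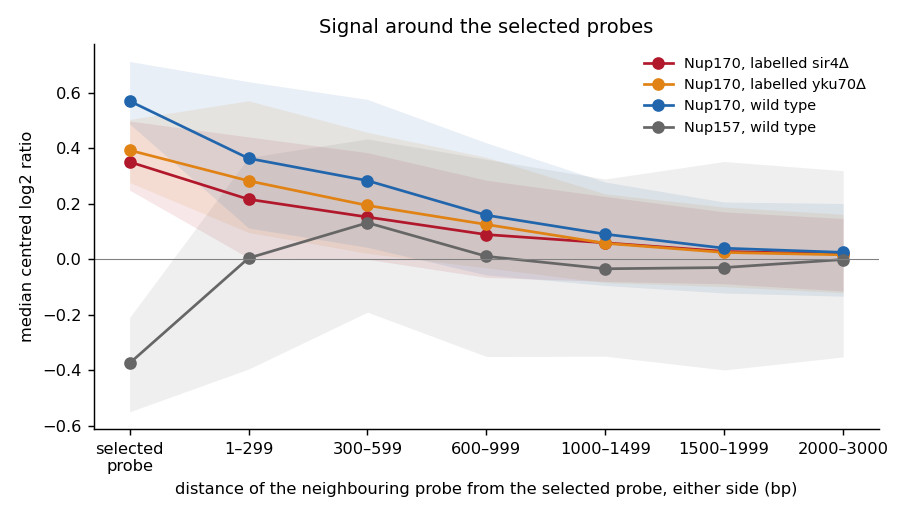
Median log2 ratio of the 130 selected probes and of their neighbours by distance in bp, either side, for the 4 libraries; shaded bands run from the 25th to the 75th percentile and other selected probes are left out of the neighbours. The 3 Nup170 medians decline with distance, with 0.57 at the probe and 0.02 at 2000 to 3000 bp in wild type, while the Nup157 median is -0.37 at the probe, 0.0042 at 1 to 299 bp and 0.13 at 300 to 599 bp.

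Position relative to genes was not used in the choice. Probes that the files annotate as downstream made up 32 of the 130, all between the 3' ends of convergent genes (24.6%, 95% exact binomial interval 17.5% to 32.9%, which covers counting only and takes probes as independent). They made up 12.5% of the other probes high with Nup170 and 3.75% of all probes. Probes inside genes were 61 (46.9%), against 55.5% of the other probes high with Nup170 and 73.3% of all. Single-sided promoters held 27 (20.8%, against 21.4% and 13.4%) and divergent promoters 10 (7.69%, against 10.7% and 9.56%). Put the other way, 15.1% of the downstream probes high with Nup170 were selected, against 7.08% of those inside genes, 8.06% of those in promoters and 6.10% of those in divergent promoters.

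The level over all probes differed between annotation types. Over all downstream probes the median was 0.09 with Nup170 in wild type and -0.20 with Nup157, whereas probes inside genes had 0.02 and 0.01. Brightness was lower at the selected probes: their WCE level had a median of -0.21 on the log2 scale, against -0.06 for the other probes high with Nup170 and 0.0062 for all probes. Near blank level in at least 1 hybridisation of any library were 5 selected probes (3.85%), against 0.278% of all probes: downstream of FUN30, PDR15, SET5 and NPT1, and inside PUF2. Brightness was not compared between annotation types, and its part in the share of downstream probes was not tested.

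**Figure D3:**
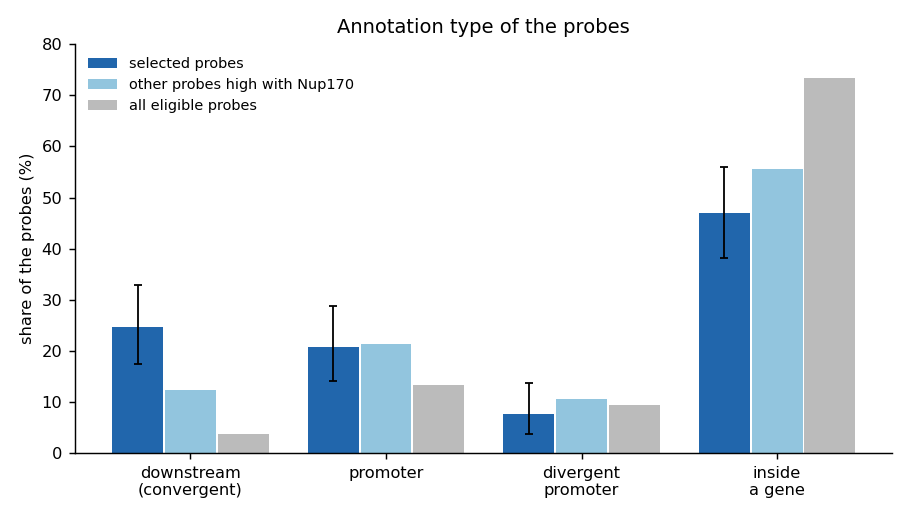
Share of probes (%) in each annotation type of the files for the 130 selected probes, the other 1442 probes high with Nup170 and all 41041 probes; black bars are 95% exact binomial intervals of the selected probes. Downstream probes make up 24.6% of the selected probes, 12.5% of the others high with Nup170 and 3.75% of all, and probes inside genes 46.9%, 55.5% and 73.3%.

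Downstream probes had medians of 0.47 and 0.42 in the sir4∆- and yku70∆-labelled libraries, against 0.67 with Nup170 in wild type. In each deletion-labelled library 12 of 32 (37.5%) reached 0.4 in both hybridisations, against 27.7% and 31.0% of all selected probes and 2.90% and 3.55% of all probes. STM1, for a ribosome-associated protein, had its downstream probe (chr12:441400-441459, toward PCD1) at 0.84 and 1.35 in the sir4∆-labelled library, 0.45 and 0.50 in the yku70∆-labelled library, 0.99 and 0.98 with Nup170 in wild type, and -0.11 and -0.12 with Nup157. PSE1, for a nuclear import receptor, gave 0.69 and 0.92, 0.82 and 0.44, 0.76 and 0.75, and -0.06 and -0.12 in the same order at chr13:888808-888867, toward GAS1. The pairs of the 3 Nup170 libraries overlapped at PSE1, whereas at STM1 the yku70∆-labelled pair lay below the others. Both probes were dim, with WCE levels of -2.43 and -2.51 on the log2 scale. HTB2, for histone H2B, differed from these: its downstream probe (chr2:236909-236968) was at 0.33 and 0.64 in the sir4∆-labelled library and 0.22 and 0.38 in the yku70∆-labelled library, against 1.13 and 0.60 in wild type, with Nup157 at -1.10 and -0.19. It was the only histone gene probe selected, of 8 high with Nup170. NUP170 itself was represented by a probe 4598 bp from its start, on the side toward ATG8 (chr2:79821-79880), near the end of the gene that carries the tag. It was at 0.09 and 0.53 in the sir4∆-labelled library, 0.30 and 0.28 in the yku70∆-labelled library, 0.48 and 0.43 with Nup170 in wild type, and -0.0034 and -0.76 with Nup157, and its wild-type mean of 0.45 was under the median of 0.57 of the selected probes.

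Genes for ribosomal proteins formed the largest group among the 16 gene lists examined. They had 22 of the 130 probes (16.9%), at 20 genes, against 1.54% of all probes. Ribosomal protein genes were common among all probes high with Nup170, with 314 of 1572, and 7.01% of those were selected, close to the 8.27% for all probes high with Nup170. Their selected probes had medians of 0.38 and 0.47 in the sir4∆- and yku70∆-labelled libraries, against 0.66 in wild type and -0.27 with Nup157. In each deletion-labelled library 9 of 22 reached 0.4 in both hybridisations, against 27.7% and 31.0% of all selected probes and 2.90% and 3.55% of all probes. The genes were RPL7A, RPL7B, RPL11B, RPL21B, RPL22A, RPL22B, RPL31A, RPL35A, RPL40B, RPL42A and RPL43B of the large subunit, and RPS7A, RPS16A, RPS17A, RPS20, RPS22B, RPS23B, RPS25A, RPS25B and RPS27A of the small subunit. Many are copies of duplicated genes of near-identical sequence, so a probe inside one may also read the other.

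RPL7A, for a large subunit protein, had the highest of these probes in wild type (chr7:365276-365335, inside the gene). It was at 0.53 and 0.67 in the sir4∆-labelled library, 0.85 and 0.69 in the yku70∆-labelled library, 1.09 and 0.81 with Nup170 in wild type, and -0.39 and -0.13 with Nup157. RPL40B, which encodes a ubiquitin fusion to a ribosomal protein, had a probe just past its 3' end (chr11:617577-617636) at 0.92 and 0.94 in the sir4∆-labelled library, 0.71 and 0.43 in the yku70∆-labelled library, 1.00 and 0.78 with Nup170 in wild type, and -0.39 and -0.31 with Nup157. The sir4∆-labelled values lay within the wild-type pair there and below it at RPL7A. RPS7A had a probe between it and RKI1 (chr15:505262-505321) that was the lowest of all selected probes in the difference of the sir4∆-labelled library from wild type, -0.67, from -0.10 and 0.35 against 0.91 and 0.67; a second RPS7A probe inside the gene was at 0.50 and 0.50 against 0.59 and 0.77. Promoter probes of RPS20, at 0.19 and 0.43 against 1.07 and 0.56 in wild type, and of RPS27A, at 0.09 and 0.60 against 1.21 and 0.48, differed by -0.50 each. In these the first wild-type hybridisation was far above the second. RPL21B lay the other way, at 0.63 and 0.57 in the sir4∆-labelled library, 0.53 and 0.39 in the yku70∆-labelled library and 0.48 and 0.48 in wild type.

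Other gene lists had few selected probes. None of 67 probes high with Nup170 at glycolysis and fermentation genes was selected, none of 28 at translation factor genes and none of 32 at amino acid biosynthesis genes. Of all probes high with Nup170 8.27% were selected, and the contrast was not tested. Single probes came from NOP1, for the nucleolar methyltransferase fibrillarin, RPN5, for a subunit of the proteasome lid, and RSM22, whose probe lies between it and RPS27A. NOP1 was at 0.21 and 0.47 in the sir4∆-labelled library, 0.43 and 0.63 in the yku70∆-labelled library, and 0.41 and 0.57 in wild type. No probe was selected at the lists of silencing factors, meiosis genes, haploid-specific genes, alpha-specific genes or inducible genes of the nuclear periphery, which had 0 to 3 probes high with Nup170 each. RPA190 and RPA135, for the largest subunits of RNA polymerase I, each had 1 selected probe, at 0.21 and 0.21 and at 0.24 and 0.27 in the sir4∆-labelled library, and at 0.40 and 0.52 and at 0.46 and 0.44 in wild type.

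Genes transcribed by RNA polymerase III, and other small RNA genes, lay beside some of the intergenic probes. A tRNA gene lay between the flanking protein-coding genes of 18 of 69 intergenic selected probes (26.1%), against 38.3% of the other intergenic probes high with Nup170 and 14.0% of all intergenic probes. Another small RNA gene (small nucleolar, small nuclear or other noncoding) lay there for 12 of 69 (17.4%), against 13.6% and 3.52%. Probes beside tRNA genes reached 0.4 in both hybridisations at 7 of 18 in the sir4∆-labelled library and at 8 of 18 in the yku70∆-labelled library, and probes beside small RNA genes at 5 and 10 of 12. Of all selected probes 27.7% and 31.0% did so in these libraries, and of all probes 2.90% and 3.55%. The 12 probes beside small RNA genes are few and include neighbouring pairs at CAF40 and RML2. CAF40, for a subunit of the CCR4-NOT complex, had the highest upstream probe in wild type (chr14:89613-89672, in the interval with PCL1 that holds a small RNA gene). It was at 0.82 and 0.87, 0.90 and 0.81, and 1.3 and 0.74 in the sir4∆-labelled, yku70∆-labelled and wild-type Nup170 libraries and at -0.23 and -0.30 with Nup157. TFA2, for a subunit of the general transcription factor TFIIE, had an upstream probe at 0.64 and 0.56, 0.64 and 0.63, and 0.76 and 0.61, and at -0.58 and -0.04 with Nup157.

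**Figure D4:**
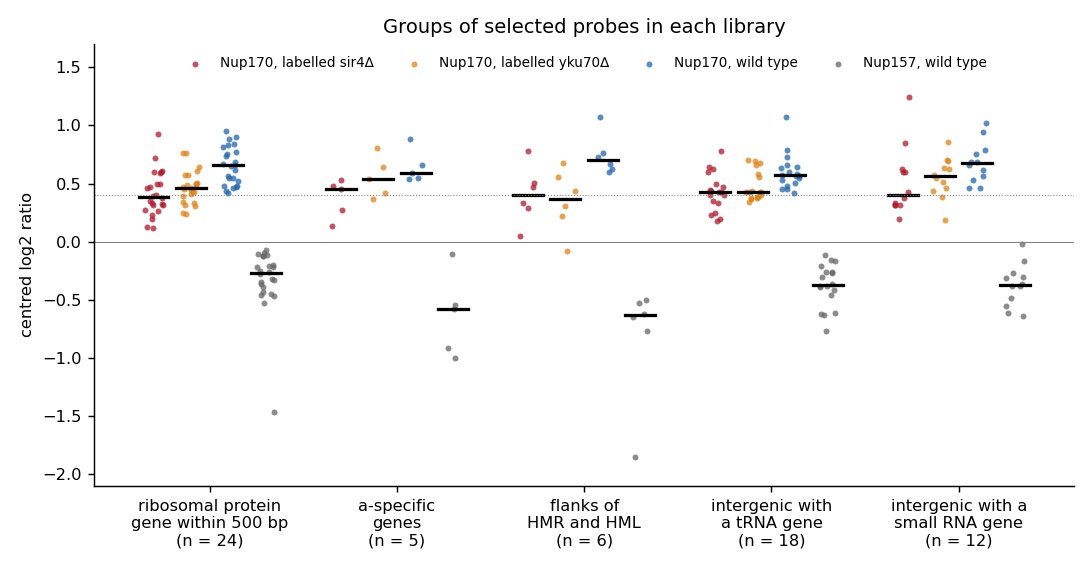
Log2 ratio of selected probes in 5 groups that overlap in part (24 within 500 bp of a ribosomal protein gene, 5 at a-specific genes, 6 at the flanks of HMR and HML, 18 intergenic with a tRNA gene and 12 intergenic with a small RNA gene), 1 point per probe as the mean of both hybridisations; black lines are medians and the dotted line is the threshold of 0.4. The Nup170 medians in the sir4∆-labelled library lie between 0.38 and 0.45 in the 5 groups and those in the yku70∆-labelled library between 0.37 and 0.56; the Nup170 and Nup157 wild-type values were used in the choice.

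The only run of more than 2 selected probes lay at STE2, the gene for the alpha-factor receptor, which is expressed in MATa and not in MATalpha cells. It held 4 probes on chromosome 6: chr6:82540-82594 at the start of STE2, chr6:83074-83133 and chr6:83492-83549 inside it, and chr6:84159-84218 inside the 3' part of the convergent neighbour BST1. Over all 7 STE2 probes the median was 0.35 and 0.45 in the sir4∆-labelled library, 0.74 and 0.54 in the yku70∆-labelled library, 0.82 and 0.56 with Nup170 in wild type, and -0.44 and -0.57 with Nup157. The 4 selected probes of the run ranged from 0.14 to 0.61 in the sir4∆-labelled library and from 0.42 to 0.80 in the yku70∆-labelled library, against 0.54 to 0.88 in wild type (means of both hybridisations). In the 3 Nup170 libraries all STE2 probes were above 0 (lowest 0.14, 0.42 and 0.54), and beyond it the nearest GYP8 probe was at -0.12, -0.33 and -0.39 and the BST1 probe 2051 bp past the STE2 start at -0.21, -0.16 and -0.16. The probe at chr6:83492-83549 was at 0.22 and 0.05 in the sir4∆-labelled library, 0.67 and 0.42 in the yku70∆-labelled library, and 0.77 and 0.42 in wild type.

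Other a-specific genes joined STE2 in part. STE6, for the exporter of a-factor, had 1 selected probe (chr11:44579-44638) at 0.54 and 0.42, 0.22 and 0.51, and 0.61 and 0.48 in the sir4∆-labelled, yku70∆-labelled and wild-type Nup170 libraries, and at -0.06 and -0.15 with Nup157. That probe was the highest of the 17 STE6 probes with Nup170 in wild type. Medians over all STE6 probes were 0.11, 0.27 and 0.28 in the 3 Nup170 libraries and -0.31 with Nup157. MFA2, for the pheromone a-factor, had a downstream probe (chr14:352575-352634) at 0.38 and 0.52, 0.76 and 0.53, and 0.64 and 0.68, and at -0.82 and -0.26 with Nup157. The other of the 2 MFA2 probes averaged -0.14, -0.15 and -0.12 in the 3 Nup170 libraries. Of the 15 a-specific probes high with Nup170, 5 (33.3%) were selected, against 8.27% of all probes high with Nup170. BAR1, for the protease that degrades alpha-factor, had none, with Nup170 medians of 0.37, 0.36 and 0.58 in the sir4∆-labelled, yku70∆-labelled and wild-type libraries and a Nup157 median of 0.25. MFA1 and ASG7 had no selected probe and Nup170 medians between -0.10 and 0.10 in all 3 libraries. AGA2, for a subunit of a-agglutinin, had none either, with Nup170 medians of -0.01, -0.03 and 0.16 in the sir4∆-labelled, yku70∆-labelled and wild-type libraries and a Nup157 median of -0.35.

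The flanks of the silent mating loci gave 6 selected probes, all on chromosome 3. A pair lay on each side of HMRA1, the silent copy of the MATa1 gene, and 1 pair between HML and CHA1, the gene of a serine and threonine deaminase. Downstream of HMRA1, the probe chr3:294933-294992 was at 0.58 and 0.98 in the sir4∆-labelled library, 0.94 and 0.41 in the yku70∆-labelled library, 1.41 and 0.73 with Nup170 in wild type, and -0.90 and -0.63 with Nup157. Between OCA4 and HMRA1, the probe chr3:292461-292520 was at 0.13 and -0.03, -0.20 and 0.04, 0.84 and 0.40, and -2.44 and -1.27 in the same order. Both deletion-labelled libraries were thus below both wild-type hybridisations at the second of these, and their values overlapped wild type at the first. The first and second probe were dim, with WCE levels of -1.51 and -1.83 on the log2 scale. The pair beside CHA1 (chr3:14953-15012 and chr3:15176-15235) averaged 0.50 and 0.33 in the sir4∆-labelled library and 0.44 and 0.31 in the yku70∆-labelled library, against 0.76 and 0.60 in wild type and -0.64 and -0.53 with Nup157. Low Nup157 values at the 6 selected probes are fixed by the choice, and unselected probes nearby varied. With Nup157, chr3:295391-295448, past the downstream HMRA1 pair, was at 1.21 and 1.51, and chr3:16704-16762, annotated to CHA1, at 0.67 and 1.12. On the OCA4 side, chr3:291802-291861 was at -1.13 and -0.88. Chromosome 3 had the most selected probes for its size, 10 of 1034, or 9.67 per 1000 probes, where the other chromosomes had 1.45 to 5.54.

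At these mating loci the strain difference moves with the result. Inside HMRA1, a gene of which MATa cells hold a further copy at MAT, the median log2 WCE level of 2 probes was -0.27, -0.30 and -0.14 in the sir4∆-labelled, yku70∆-labelled and wild-type Nup170 strains and -1.10 in the Nup157 strain. The Nup157 strain is therefore MATa by its label only, and its mating type was not tested. The part of this strain difference in the Nup157 values at the a-specific genes and the HM flanks was not tested either. Without the probes of these genes, the STE2 run and the HM flanks, 32 of 118 probes were at 0.4 or more in both hybridisations in the sir4∆-labelled library and 34 of 117 in the yku70∆-labelled library, compared with 36 of 130 and 40 of 129 in all.

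**Figure D5:**
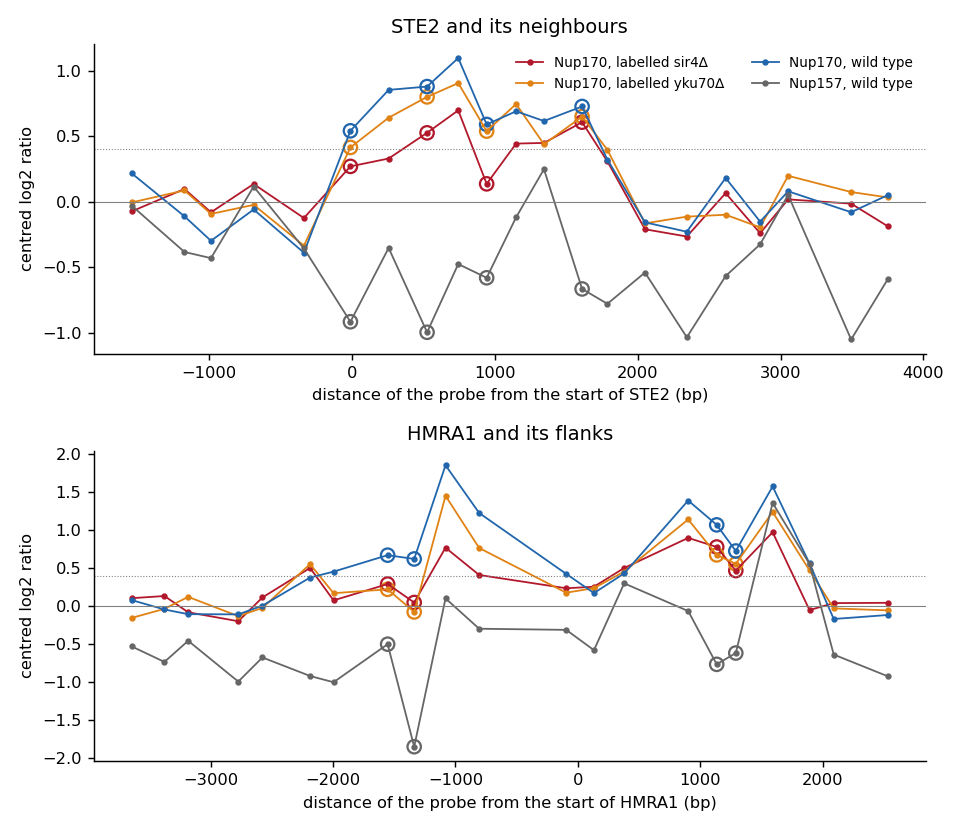
Log2 ratio (mean of both hybridisations) of all probes around STE2 and around HMRA1 by their distance in bp from the start of the gene, for the 4 libraries; circles mark the selected probes and the dotted line the threshold of 0.4. The 3 Nup170 libraries are all above 0 over STE2, with selected probes between 0.14 and 0.88. Nup157 lies between -1.00 and -0.58 at these selected probes, and between -1.00 and 0.25 over all STE2 probes. On both sides of HMRA1 the wild-type Nup170 values lie above those of both deletion-labelled libraries at the 4 selected probes. The Nup170 and Nup157 wild-type values were used in the choice.

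YRA1, for an RNA-binding protein of mRNA export, had 2 neighbouring probes inside the gene, chr4:1237312-1237371 and chr4:1237483-1237542. The first was at 0.66 and 0.67 in the sir4∆-labelled library, 0.88 and 0.59 in the yku70∆-labelled library, 1.12 and 0.84 in wild type, and -0.61 and -0.14 with Nup157. The second was at 0.77 and 0.78 in the sir4∆-labelled library, 0.42 and 0.36 in the yku70∆-labelled library, 1.19 and 0.88 in wild type, and -0.36 and -0.18 with Nup157. The deletion-labelled pairs overlapped at the first probe, and at the second the sir4∆-labelled pair lay above the yku70∆-labelled one. LIN1, for a protein of the U5 snRNP, also had 2 probes, 1 of them inside the gene (chr8:411458-411517). It was at 0.82 and 0.80 in the sir4∆-labelled library, 1.05 and 0.65 in the yku70∆-labelled library, 1.07 and 0.61 in wild type, and -0.13 and -0.46 with Nup157. The inside probe had the second highest yku70∆-labelled value of all selected probes, after CAF40. PDR5, for the main multidrug exporter, had a probe inside the gene (chr15:623041-623098) at 0.59 and 0.83 in the sir4∆-labelled library, 0.77 and 0.68 in the yku70∆-labelled library, 0.90 and 0.73 in wild type, and -0.19 and -0.0011 with Nup157.

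The highest value of all in wild type, 0.68 and 1.92 inside PUF2 (chr16:650611-650670), for an RNA-binding protein of the Pumilio family, comes from a probe near blank level, so its ratio cannot be read. The same holds for the highest values in the sir4∆-labelled library, downstream of PDR15 at 1.08 and 2.69 and of FUN30 at 0.71 and 2.12, and for the lowest in the yku70∆-labelled library, downstream of NPT1 at -0.22 and -0.47. Among probes above blank, the highest in the sir4∆-labelled library lay upstream of PDX3, for an enzyme of vitamin B6 metabolism, at 1.08 and 1.41, against 0.42 and 0.51 in wild type, with a WCE level of -3.06 on the log2 scale. FAS1, for a subunit of fatty acid synthase, had the lowest such probe in the yku70∆-labelled library, in its promoter (chr11:100385-100444, WCE level -2.28), at -0.14 and -0.19, where the sir4∆-labelled library had 0.27 and 0.51 and wild type 0.44 and 0.76. Its other selected probe, near the 3' end (chr11:105715-105772), was at 0.27 and 0.36 in the yku70∆-labelled library and 0.65 and 0.40 in wild type.

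Of the 10 lowest selected probes in the sir4∆-labelled library, 8 lay inside a gene: BRE2, UBA4, CDC39, FKS1, SIN3, MYO2, IRE1 and DNF1. Probes inside genes made up 46.9% of the selected probes and 73.3% of all probes, so nothing is read from this count. UBA4, for an enzyme that activates the ubiquitin-like protein Urm1, was at -0.04 and -0.11 in the sir4∆-labelled library, 0.09 and 0.06 in the yku70∆-labelled library, and 0.55 and 0.52 in wild type. CDC39, for the scaffold of the CCR4-NOT complex, was at -0.05 and 0.03, 0.25 and 0.24, and 0.58 and 0.49. Both were below wild type in all hybridisations of the deletion-labelled libraries. FKS1, for a subunit of glucan synthase, had 3 selected probes in 2 places. The probe at chr12:811999-812054 was at 0.17 and -0.18 in the sir4∆-labelled library, 0.46 and 0.29 in the yku70∆-labelled library and 0.45 and 0.45 in wild type. Its second probe gave 0.01 and 0.22, 0.41 and 0.45, and 0.53 and 0.44 (chr12:813635-813694), and the last 0.38 and 0.33, 0.35 and 0.47, and 0.93 and 0.62 (chr12:813920-813979). At each of these 3 probes both sir4∆-labelled hybridisations were below both of wild type, and at the last both yku70∆-labelled ones were too. Of all selected probes 56.2% and 55% lay so in the sir4∆- and yku70∆-labelled libraries, and of all probes 17.4% and 15.6%. Wild-type values had a part in the choice, so nothing is read from these comparisons with wild type.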

How the data were processed

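Sheared chromatin of 4 yeast strains, each with a Myc-tagged Nup170p or Nup157p, was immunoprecipitated; ChIP DNA carried Cy5 and WCE DNA of the same strain Cy3, per the labels' protocols, which name Agilent Feature Extraction without a version. The deposited intensity columns give foreground, background and normalised brightness of each spot in both channels. The deposited log2 columns hold the authors' log2 ratios per hybridisation and combined, which were recomputed from the normalised intensities. A p-value per probe, per the file headers, was not used. Deposited marks of 0 or 1 (unit other) flag excluded spots and probes of bound regions. No label or header names the genome build, and positions are those of the files.

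Of 41775 data probes, 41480 were nuclear and 41041 passed the rule's filters. The log2 ratio of normalised ChIP over WCE intensity was centred on the nuclear median of each hybridisation. Near blank means a WCE foreground at or under a level set by 660 blank spots (their mean with 2.6 SDs added) in at least 1 hybridisation. Gene names came from RefSeq (R64), which matched 5639 of 5659 annotated loci and all 130 probes; neighbours and RNA genes follow its gene order. The named genes are those of runs of 3 or more selected probes, the 15 highest in wild type, the 10 highest and lowest in each deletion-labelled library and in its difference from wild type, the members of 16 gene lists, and the 5 probes either side of each threshold; others, such as RPA190 and RPA135, were picked after their values were seen. The probes and lists were chosen with earlier results of these data known.

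Alternatives were other thresholds, single hybridisations, normexp (limma 3.58.1), an intensity trend removed by lowess (statsmodels 0.14.6), the authors' combined ratio, and subsets of probes; the selection code was tested on simulated data. A planned motif search was not run, since no promoter sequence was used here.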

Additional observations from a re-analysis of the deposited data

Results flagged for a closer look

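At 5 selected probes the libraries labelled sir4∆ and yku70∆ lay on opposite sides of Nup170 in wild type in both hybridisations. The difference was not tested, and wild-type values had a part in the choice of these probes. The same share over all probes was not computed, so nothing is read from this count. The sir4∆-labelled minus yku70∆-labelled difference in log2 ratio was -0.26 upstream of ATP1, for a subunit of the mitochondrial ATP synthase. It was 1.06 upstream of PDX3, 1.46 downstream of PDR15 and 0.25 upstream of URA10, for an enzyme of pyrimidine synthesis. Downstream of YHR140W it was -0.24. The PDR15 probe was near blank level, and the PDX3 probe had a WCE level of -3.06 on the log2 scale.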

How the results depend on the processing

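The set of selected probes depended on its thresholds and on background correction. In place of 130 probes, a Nup170 threshold of 0.3 gave 298 and 0.5 gave 66, a Nup157 threshold of -0.2 gave 62 and 0.2 gave 237, and normexp gave 460, of which 77 were among the 130. Background-subtracted spot signals gave 63 (57 shared), the mean of both hybridisations 527, hybridisation 1 alone 1261 and hybridisation 2 alone 456. With the intensity trend removed there were 105, of which only 40 were shared, so most of the named probes change under that choice although the count does not; the cause was not tested. Leaving out 20 kb at each end or probes near blank gave 125 each, and ratios in lower-side SDs 143 (106 shared). The median of 0.35 in the sir4∆-labelled library ran between 0.30 and 0.42 under the other choices, and that of 0.39 in the yku70∆-labelled library between 0.37 and 0.42, except that the Nup170 threshold of 0.5 gave 0.47 and 0.44. The sir4∆-labelled minus yku70∆-labelled median of -0.03 was -0.10 with hybridisation 1, 0.029 with hybridisation 2, where its sign turned, and -0.20 with normexp. Downstream probes made up 17.4% with the Nup170 threshold of 0.3, against 24.6%, and 31.8% with 0.5. Runs numbered 114, or 120 and 111 with gaps of 500 and 2000 bp. Counts at 0.4 or more, an alternative chosen after seeing the data, were 36 and 40 in the sir4∆- and yku70∆-labelled libraries, 33 and 40 above blank, and 29 and 33 with 1 probe per run. No paired analysis was possible because each group has 1 library. Few arrays and dim probes limit the depth of these comparisons.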
